A study of Mus musculus with 4 samples.

Results

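The semaphorin, netrin and Slit guidance genes comprise the secreted and membrane-bound axon guidance cues of these families and their receptors. Their rows were picked by gene symbol, in a set chosen with earlier results of these data known. In the deposited table, 51 of the 55426 rows carried such a symbol. The symbols were those of semaphorins of classes 3 to 7, plexins, neuropilins, netrins, netrin-Gs, DCC and UNC5 receptors, Draxin, Slits and Robos. Of the 51 genes, 30 encode cues and 21 encode receptors. Expression was measured by RNA sequencing of polyadenylated RNA from mouse retinal organoids at day 6, which are aggregates of pluripotent cells driven in culture towards retinal progenitors. All organoids came from 1 line labelled Rx:GFP Mettl3 KO that carries a doxycycline-inducible, HA-tagged METTL3, the catalytic subunit of the RNA N6-methyladenosine (m6A) writer. The untreated group (2 libraries) received no doxycycline (Dox), and the Dox group (2 libraries) received 2 µg/ml for 6 days. Both groups share the knockout, the reporter, the inducible construct and a medium containing the compound abbreviated AGN in the labels. The sample titles also carry the letters EV, which the labels do not explain, and neither whether the line is 1 clone nor whether the duplicates were separate cultures is given, so p-values measure only the spread between these libraries. The labels say that libraries of the duplicates were prepared and sequenced in separate rounds, yet give 1 batch date for all 4.

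Guidance cues steer growing axons and migrating cells by attraction or repulsion. Secreted class 3 semaphorins signal through neuropilins paired with plexins, while transmembrane semaphorins bind plexins directly. Netrins attract through DCC and repel through UNC5 receptors, and Slits repel through Robo receptors. In the developing eye these systems are best known for guiding retinal ganglion cell axons to the optic disc and across the midline, and for laminating retinal neurites, and many are already transcribed in neuroepithelial progenitors before axons form.

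The fitted depth was 31700000 to 34900000 fragments per library. Across genes, which are not independent replicates, log2 levels correlated with a Pearson's r of 0.990 within the untreated pair, 0.987 within the Dox pair and 0.961 to 0.966 across groups. FPKM values count fragments scaled to transcript length and library depth, so levels can be set side by side between genes. Mettl3 itself stood at 40.33 and 37.98 FPKM without Dox and 45.2 and 46.37 FPKM with it, a difference that did not pass the threshold (adjusted p = 0.122 in limma). Gene-level values do not separate the knocked-out locus from the inducible copy. The labelled retinal tissue was checked against eye-field markers. Pax6 stood between 118.86 and 130.69 FPKM in all libraries and did not pass. Rax went from 1.12 and 0.82 FPKM without Dox to 201.14 and 227.98 FPKM with it, and Six6 from 0.01 FPKM in both untreated libraries to 79.22 and 92.44 FPKM, so both were near 0 in the untreated organoids. Lhx2 went from 26.72 and 24.30 FPKM to 277.17 and 323.88 FPKM and Six3 from 7.70 and 7.05 FPKM to 83.02 and 108.75 FPKM. These 4 genes rose in limma, and exons of Rax, Six6 and Six3 overlap other annotated genes on the opposite strand.

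With Dox, Unc5b, Sema3a, Sema3f and Sema5a rose, and Sema5b, Dcc, Slit1, Robo2, Sema3c, Unc5c, Nrp2, Unc5a, Sema6a and Plxna1 fell. In a limma fit across all 13931 genes whose mean reached 1 FPKM, these 14 of the 35 guidance genes that reached that mean passed an adjusted p below 0.05. Among all tested genes 9.31% passed, 4.44% higher and 4.87% lower, against 14 of 35 guidance genes (40.0%). The set was chosen with earlier results of these data known, so these shares are described and not tested. In 8 of the 35 genes the Dox libraries were both above the untreated pair, against 26.5% of all tested genes, and in 16 both were below it, against 26.9%. A gene can reach the mean through the group in which it is high, so the share describes these 35 genes and not the 51. Of the cues tested, 3 rose and 4 fell of 20. Among the tested receptors 1 rose and 6 fell of 15. The median log2 fold change of the 35 genes was -0.14, against -0.0042 over all tested genes, and the median absolute value was 0.35 against 0.13. In whole-organoid RNA, fewer cells of a type and less RNA per cell cannot be told apart.

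**Figure D1:**
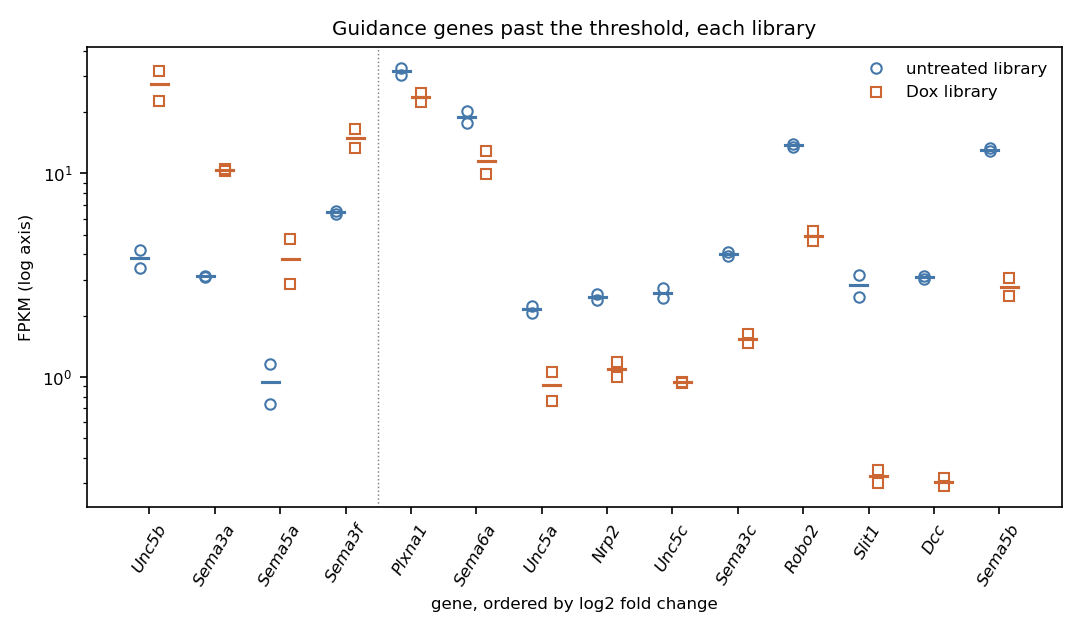
FPKM on a log axis of the 14 guidance genes that passed the threshold, with each untreated library as a circle, each Dox library as a square and the group mean as a bar; the dotted line separates the 4 genes that rose from the 10 that fell. In each of the 14 genes the libraries of the groups do not overlap, and Unc5b shows the widest upward gap (3.82 to 27.4 FPKM).

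Markers of other cell types moved between the groups too, and their part in the guidance results was not tested. The marker lists were chosen with earlier results of these data known, so their counts are described and not tested. Over all tested genes, 4.44% passed higher and 4.87% lower with Dox. A marker can also reach the mean of 1 FPKM through the group in which it is high. Of 9 young neuron markers, the 8 that could be tested all fell with Dox (median log2 fold change -1.47), and the summed level of the list went from 199.52 and 199.53 FPKM to 95.12 and 96.63 FPKM. Dcx, a migrating neuron marker, was listed at 1.19 and 1.25 FPKM without Dox and at 0.13 and 0.11 FPKM with it. Neural crest markers summed to 31.25 and 31.08 FPKM without Dox and 10.06 and 9.48 FPKM with it, and 4 of the 5 fell, among them Sox10. Dorsal forebrain midline markers summed to 203.46 and 205.65 FPKM against 17.29 and 18.83 FPKM, with 4 of 5 tested genes lower. Mesenchymal markers summed to 11.24 and 9.66 FPKM against 22.75 and 20.73 FPKM, with 2 of 5 higher. Most of the Dox sum came from Col1a2, at 2.46 and 1.93 FPKM without Dox and 12.21 and 12.02 FPKM with it. Prrx1 was lower in both Dox libraries (3.49 and 3.23 FPKM against 2.4 and 1.62 FPKM) without passing. Floor plate markers were low in all libraries, summing to 4.17 and 3.54 FPKM against 2.72 and 2.84 FPKM, most of it from Spon1, while Shh did not exceed 0.06 FPKM. All 5 were lower in both Dox libraries, but only Spon1 could be tested, and it did not pass. Pluripotency markers summed to 22.59 and 21.06 FPKM against 24.69 and 16.97 FPKM, and 0 of 4 passed (1 at an unadjusted p under 0.05 in limma). The 6 endothelial markers summed to 1.08 and 0.97 FPKM against 15.19 and 19.54 FPKM, nearly all of the latter from Kdr, the only 1 that could be tested, which rose. No gene of these lists was at 0 in all 4 libraries.

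**Figure D2:**
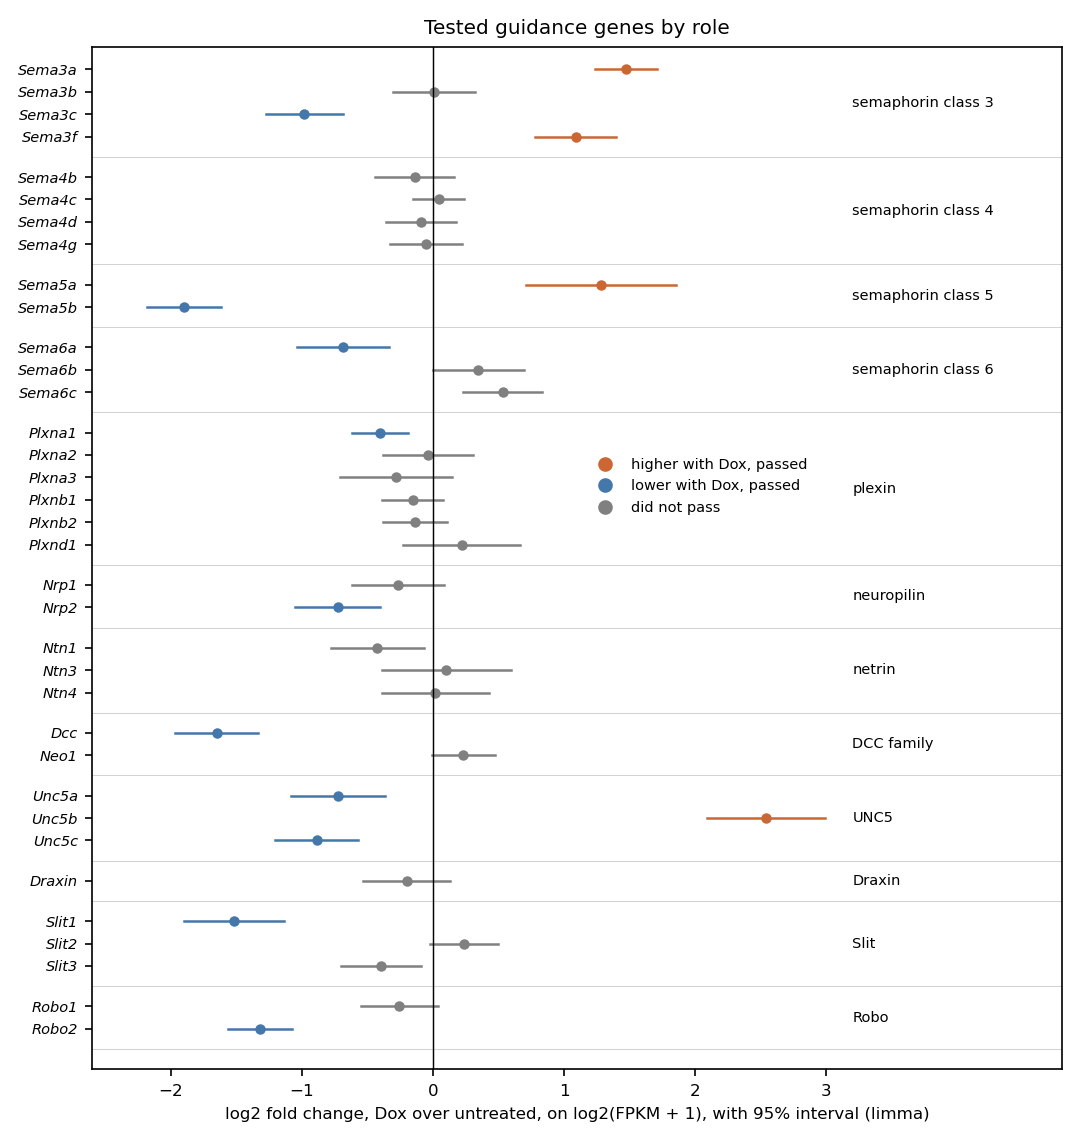
Log2 fold changes (Dox over untreated, on the log2(FPKM + 1) scale) of the 35 tested guidance genes grouped by role, with 95% intervals from limma; orange marks genes that rose, blue genes that fell and grey genes that did not pass. All roles except neuropilins, Robos and Draxin have genes on both sides of 0, and the 4 tested class 4 semaphorins lie within 0.14 of it.

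Among the secreted class 3 semaphorins, Sema3a and Sema3f rose and Sema3c fell. Sema3a, the prototype repellent that signals through Nrp1 and A-type plexins, was listed at 3.14 and 3.11 FPKM without Dox and at 10.31 and 10.55 FPKM with it. The Dox libraries agreed closely with each other and lay above both untreated libraries. The mean was 3.34-fold higher (log2 fold change 1.47 with an SE of 0.0942, limma adjusted p = 7.21e-04). Sema3f, which acts mainly through Nrp2, stood at 6.54 and 6.34 FPKM without Dox and 13.26 and 16.55 FPKM with it. Its groups did not overlap, and the mean was 2.31-fold higher (log2 fold change 1.09, adjusted p = 0.00525). Sema3c, a neuropilin ligand best known for neural crest and cardiac outflow development, went the other way, from 3.92 and 4.13 FPKM to 1.47 and 1.62 FPKM. Its mean was 2.61-fold lower with Dox (log2 fold change -0.98, adjusted p = 0.00609). Sema3b was at 3.65 ± 0.0141 FPKM without and 3.68 ± 0.523 FPKM with Dox (SD, n = 2 each), and the 95% interval of its log2 fold change ran from -0.31 to 0.32. The summed class 3 level went from 18.39 FPKM in both untreated libraries to 30.02 and 32.78 FPKM. Sema3c made up 21.3% and 22.5% of that sum without Dox and 4.9% in both Dox libraries, while Sema3a made up 17.1% and 16.9% against 34.3% and 32.2%. When genes of any level were tested, the calls of Sema3f (adjusted p = 0.0562) and Sema3c (adjusted p = 0.053) were lost.

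The transmembrane class 5 semaphorins, which confine retinal neurites to the inner plexiform layer through A-type plexins, moved in opposite directions. Sema5b was listed at 12.83 and 13.26 FPKM without Dox and at 2.5 and 3.05 FPKM with it. Both Dox libraries were far below both untreated libraries, and the mean was 4.70-fold lower (log2 fold change -1.90, SE 0.113, adjusted p = 5.78e-04 in limma). Sema5a was low without Dox, at 1.16 and 0.74 FPKM, and stood at 2.87 and 4.76 FPKM with it. The Dox libraries differed from each other by more than the untreated level, yet both lay above it. The mean was 4.02-fold higher (log2 fold change 1.28, SE 0.229, adjusted p = 0.0261). Its call was lost without untreated replicate 1 (adjusted p = 0.0649), without untreated replicate 2 (0.122), without Dox replicate 2 (0.106) and with genes of any level tested (0.141). Sema5b made up 91.7% and 94.7% of the class 5 sum without Dox and 46.6% and 39.1% with it.

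Class 6 semaphorins are transmembrane ligands of A-type plexins. Sema6a was the most abundant of them, at 20.26 and 17.63 FPKM without Dox and 9.97 and 12.95 FPKM with it. The groups did not overlap and the mean was 1.65-fold lower (log2 fold change -0.69, adjusted p = 0.0416 in limma). That call was lost in each fit that left out a library (adjusted p = 0.204 and 0.11 without untreated replicates 1 and 2, 0.135 and 0.0578 without Dox replicates 1 and 2), with rescaling to TPM (0.0686), without the variance trend (0.0596) and with genes of any level tested (0.162). Sema6c was at 4.36 and 4.85 FPKM without Dox and at 6.52 and 7.72 FPKM with it, all Dox values higher. It missed the threshold narrowly (log2 fold change 0.53, adjusted p = 0.0558 in limma). Median centring (0.0446), quantile normalization (0.0437) and robust estimation (0.0403) brought it past the threshold. It did not pass in the other fits, among them TPM (0.0954), the replicate block (0.0617) and genes of any level (0.162). Sema6b was at 2.33 ± 0.099 and 3.25 ± 0.552 FPKM (SD, n = 2 each, adjusted p = 0.207).

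Of the 4 tested class 4 semaphorins, 0 passed the threshold in limma, and 0 had an unadjusted p under 0.05. Sema4c, a ligand of Plxnb2, was the most abundant semaphorin of all, at 33.02 and 33.81 FPKM without Dox and 32.78 and 36.19 FPKM with it. The groups overlapped, and the 95% interval of the log2 fold change ran from -0.15 to 0.24. Sema4b, Sema4d (the ligand of Plxnb1) and Sema4g had log2 fold changes of -0.14, -0.09 and -0.05, with overlapping libraries in each. Sema4c held between 58.4% and 62.2% of the class 4 sum in all 4 libraries.

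**Figure D3:**
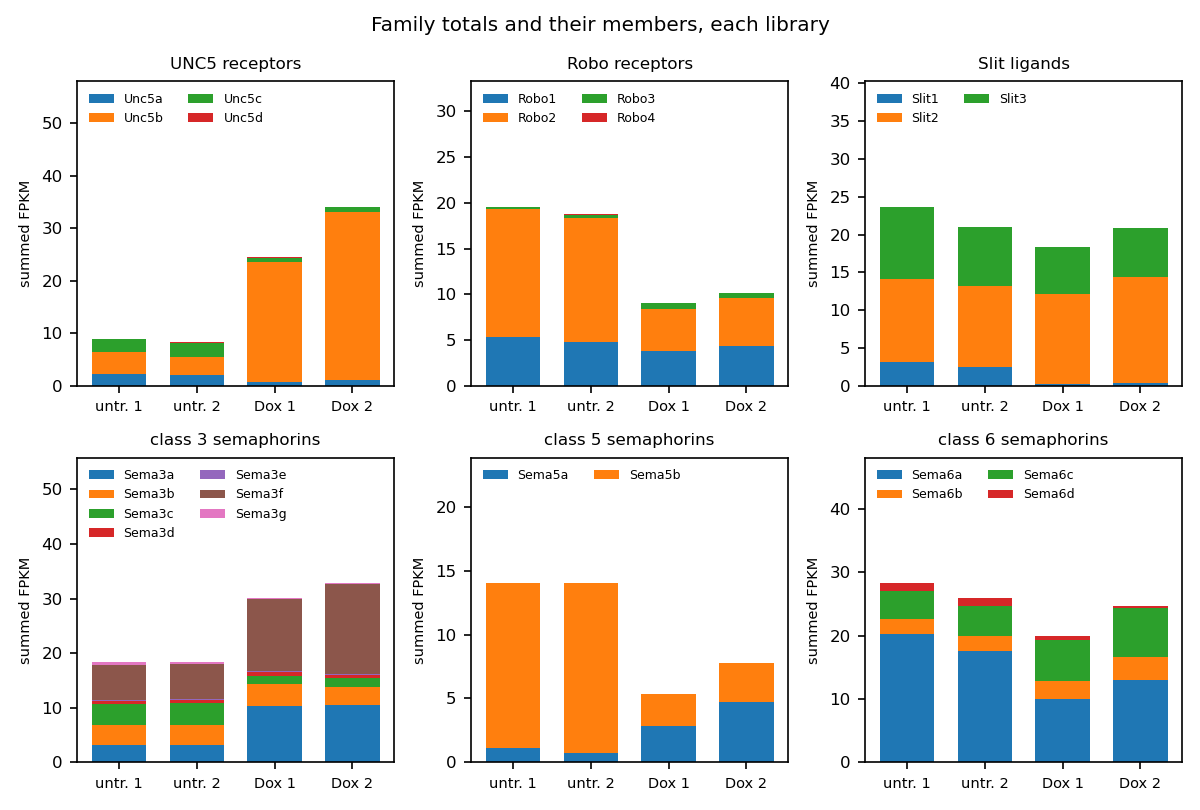
Stacked bars of summed FPKM in each library for 6 families, with 1 colour per gene and each axis starting at 0. Unc5b takes 40.8% to 47.0% of the UNC5 sum without Dox and 92.4% to 93.9% with it, and the Robo sum goes from 19.56 and 18.73 to 9.08 and 10.13 FPKM.

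The plexins, the signalling receptors of semaphorins, were the most abundant receptor family at a sum of 106 ± 3.68 FPKM without Dox and 90.0 ± 9.86 FPKM with it (SD, n = 2 each). Plxnb2 and Plxna1 led the family in every library. Plxna1, the co-receptor through which neuropilins pass on class 3 semaphorin signals, was at 32.99 and 30.46 FPKM without Dox and at 22.45 and 24.94 FPKM with it. The groups did not overlap, and the mean was 1.34-fold lower (log2 fold change -0.41, adjusted p = 0.0453 in limma). It was the weakest of the 14 calls: each fit without 1 library lost it (adjusted p = 0.237 and 0.142 without untreated replicates 1 and 2, 0.168 and 0.103 without Dox replicates 1 and 2), as did the replicate block (0.0885), TPM (0.152), the fit without the variance trend (0.074) and the test of genes of any level (0.129). Its annotated exons also overlap Gm26811 on the opposite strand, and whether counting used strand is not given in the sources used here. The other 5 tested plexins did not pass. Plxnb2 was at 39.9 ± 2.32 and 36.2 ± 3.90 FPKM, Plxnb1 at 18.7 ± 1.34 and 16.7 ± 1.21 FPKM and Plxna3 at 10.9 ± 1.57 and 8.81 ± 1.96 FPKM (SD, n = 2 each). Plxnd1, the receptor of Sema3e, was at 1.95 and 2.22 FPKM without Dox and at 2.08 and 3.17 FPKM with it, and Plxna2 stayed between 1.17 and 1.46 FPKM.

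The neuropilins, the ligand-binding receptors of class 3 semaphorins, were low in all libraries. Nrp2, the Sema3f receptor, was listed at 2.56 and 2.38 FPKM without Dox and at 1.0 and 1.19 FPKM with it. Both Dox values lay below both untreated values, a 2.26-fold lower mean (log2 fold change -0.73, adjusted p = 0.0254 in limma). The call was lost in each fit that left out a library (adjusted p = 0.109 and 0.0892 without untreated replicates 1 and 2, 0.108 and 0.0838 without Dox replicates 1 and 2) and with genes of any level tested (0.092). Nrp1, the Sema3a receptor and a co-receptor of VEGF, was at 1.41 and 1.35 FPKM without Dox and at 1.11 and 0.85 FPKM with it, and did not pass (95% interval of the log2 fold change -0.62 to 0.08, adjusted p = 0.324). With Dox, the mean level of Sema3a was 10.4 FPKM and that of Nrp1 0.98 FPKM.

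Netrins were scarce. Ntn1, the best studied netrin and the optic disc cue for ganglion cell axons, was at 1.73 and 1.36 FPKM without Dox and at 0.88 and 0.9 FPKM with it. The values did not overlap, but the difference did not pass (log2 fold change -0.43, unadjusted p = 0.0272, adjusted p = 0.147 in limma). Ntn4, a basement membrane netrin, lay between 1.15 and 1.72 FPKM in all libraries. Ntn3 lay between 3.2 and 4.9 FPKM, with overlapping groups, and its exons overlap Tbc1d24 on the same strand, so its value is uncertain. Draxin, a secreted inhibitor that binds netrin and DCC, was at 1.57 ± 0.0919 and 1.24 ± 0.141 FPKM (SD, n = 2 each, adjusted p = 0.426).

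Of the receptors in the DCC family, Dcc fell and Neo1 did not pass. Dcc, the attractive netrin receptor, was listed at 3.15 and 3.04 FPKM without Dox and at 0.32 and 0.29 FPKM with it. The replicates were close, and the mean was 10.1-fold lower with Dox (log2 fold change -1.65 with an SE of 0.127, limma adjusted p = 0.00129). Neo1, its only close relative and a receptor for netrins and repulsive guidance molecules, was far more abundant, at 45.03 and 39.05 FPKM without Dox and 46.91 and 51.98 FPKM with it. Its Dox libraries were slightly above the untreated ones, without overlap. The 95% interval of its log2 fold change ran from -0.01 to 0.47 (adjusted p = 0.227).

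Within the UNC5 family, the repulsive netrin receptors, Unc5b rose while Unc5a and Unc5c fell. Unc5b was at 4.22 and 3.42 FPKM without Dox and at 22.74 and 31.99 FPKM with it. Both Dox libraries were several-fold above both untreated ones, although they differed widely from each other. The mean was 7.16-fold higher, the largest rise of the 35 genes (log2 fold change 2.54, SE 0.18, adjusted p = 9.82e-04 in limma). Unc5b is also known from endothelial tip cells. The endothelial markers Pecam1, Cdh5, Tek, Cldn5 and Emcn were at or below 0.89 FPKM in each library, with Emcn at 0 in 3 of the 4. Among them, Cdh5 went from 0.05 and 0.01 FPKM to 0.43 and 0.61 FPKM and Tek from 0.02 and 0.08 FPKM to 0.2 and 0.28 FPKM, both without overlap, while Pecam1 and Cldn5 overlapped between groups. In the same libraries the VEGF receptor gene Kdr went from 0.22 and 0.25 FPKM to 13.91 and 17.63 FPKM. The part of endothelial RNA in the Unc5b result was not tested. Unc5c was at 2.44 and 2.75 FPKM without Dox and at 0.93 and 0.95 FPKM with it, with no overlap and a 2.76-fold lower mean (log2 fold change -0.89, adjusted p = 0.0122). Unc5a was at 2.23 and 2.07 FPKM without Dox and at 0.76 and 1.06 FPKM with it, also without overlap. Its mean was 2.36-fold lower (log2 fold change -0.73, adjusted p = 0.0366 in limma). The Unc5a call was lost in each fit that left out a library (adjusted p = 0.135 and 0.115 without untreated replicates 1 and 2, 0.125 and 0.078 without Dox replicates 1 and 2). The Unc5c call was lost without untreated replicate 2 (0.0629), Dox replicate 1 (0.0706) or Dox replicate 2 (0.0737). Both were also lost with genes of any level tested (adjusted p = 0.115 for Unc5a and 0.0617 for Unc5c). Exons of Unc5a overlap Hk3 and those of Unc5c overlap Gm15688, both on the opposite strand. The summed UNC5 level went from 8.98 and 8.39 FPKM to 24.6 and 34.08 FPKM.

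Slit1 fell with Dox and the other Slits did not pass the threshold. Slit1 was at 3.17 and 2.46 FPKM without Dox and at 0.3 and 0.35 FPKM with it. The groups lay far apart, with an 8.66-fold lower mean (log2 fold change -1.52, SE 0.151, adjusted p = 0.00325 in limma). Slit2, which with Slit1 shapes the optic chiasm, was at 10.93 and 10.72 FPKM without Dox and at 11.89 and 14.02 FPKM with it (adjusted p = 0.248). Slit3 was at 9.58 and 7.79 FPKM without Dox and at 6.15 and 6.52 FPKM with it (log2 fold change -0.40, unadjusted p = 0.0199, adjusted p = 0.122). The Slit sum, 22.3 ± 1.92 and 19.6 ± 1.80 FPKM (SD, n = 2 each), was held mostly by Slit2 and Slit3. Slit1 made up 13.4% and 11.7% of it without Dox and 1.6% and 1.7% with it.

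Robo2, the main Slit receptor of retinal ganglion cells, was at 13.96 and 13.54 FPKM without Dox and at 4.63 and 5.2 FPKM with it. Replicates were close and the mean was 2.80-fold lower (log2 fold change -1.32, SE 0.0966, adjusted p = 0.00107 in limma). Robo1, which is co-expressed with Robo2 in many neurons, was at 5.34 and 4.8 FPKM without Dox and at 3.78 and 4.39 FPKM with it. Its groups did not overlap either, but it did not pass (log2 fold change -0.26, 95% interval -0.55 to 0.04, adjusted p = 0.268). Robo2 made up 71.4% and 72.3% of the Robo sum without Dox and 51.0% and 51.3% with it. Sema5b, Dcc, Slit1, Robo2, Sema3a and Unc5b were the 6 of the 14 genes whose calls held in every alternative fit that tested them.

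**Figure D4:**
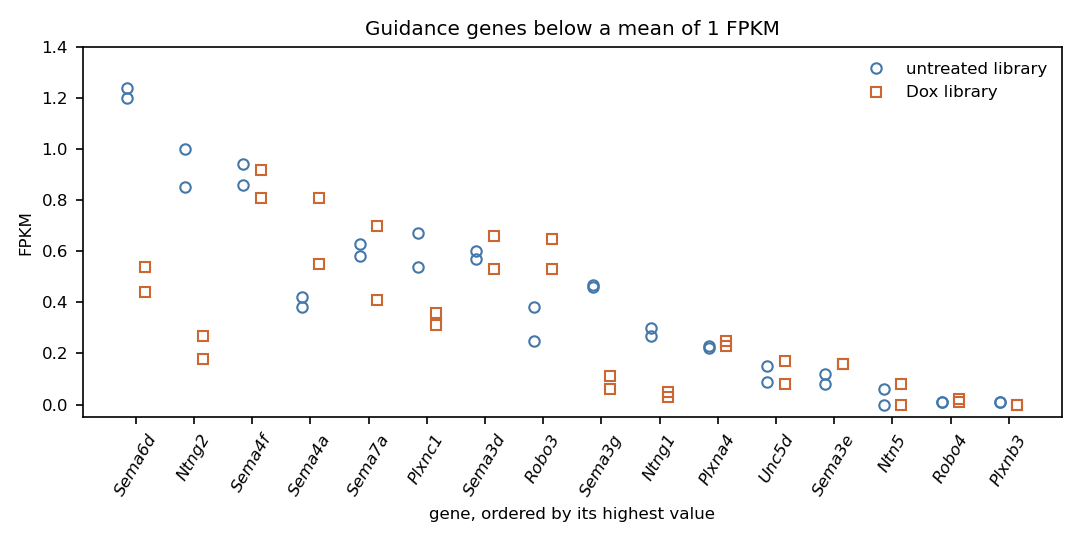
FPKM of the 16 guidance genes whose mean over the 4 libraries was below 1 FPKM, with untreated libraries as circles and Dox libraries as squares. Sema6d, Ntng2, Sema3g, Ntng1 and Plxnc1 stand lower in both Dox libraries, and the highest single value is 1.24 FPKM.

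The remaining 16 genes had a mean below 1 FPKM and were tested only when genes of any level were admitted, where 2.71% of 27532 genes passed, 1.49% lower with Dox. The genes nearest to the filter were Sema4f and Sema6d just under it, with means of 0.882 and 0.855 FPKM, and Nrp1 and Ntn1 just over it, with means of 1.18 and 1.22 FPKM. In 3 of the 16 genes both Dox libraries were above both untreated libraries, in 6 they were below, and in 7 the groups overlapped. Over all 13601 genes below the filter with a value above 0, both Dox libraries were above in 14.1% and below in 16.6%. The netrin-G genes encode membrane-anchored relatives of netrins that bind synaptic partners rather than DCC. Ntng1 was at 0.27 and 0.3 FPKM against 0.05 and 0.03 FPKM and passed in that fit (adjusted p = 0.0462 in limma). Ntng2 was at 0.85 and 1.0 FPKM against 0.18 and 0.27 FPKM and did not (adjusted p = 0.0599). Sema3g, at 0.47 and 0.46 FPKM against 0.11 and 0.06 FPKM, passed (adjusted p = 0.0427), while Sema6d, at 1.24 and 1.2 FPKM against 0.54 and 0.44 FPKM, did not (adjusted p = 0.0761). The Dox values of Ntng1 correspond to about 8 and 5 fragments over its longest annotated transcript. Those of Sema3g correspond to about 15 and 8 fragments, so counting error is large for both genes. Plxnc1, the Sema7a receptor, was at 0.54 and 0.67 FPKM against 0.31 and 0.36 FPKM (adjusted p = 0.196). Robo3, which silences Slit repulsion in commissural axons before crossing, was at 0.25 and 0.38 FPKM against 0.65 and 0.53 FPKM (adjusted p = 0.239). Sema4a and Sema3e also had both Dox values above both untreated values without passing. Sema3d, Sema4f, Sema7a, Plxna4 and Unc5d overlapped between groups at 0.08 to 0.94 FPKM. Robo4, the endothelial Robo, and Plxnb3 did not exceed 0.02 FPKM, and Ntn5 was listed at 0 in 1 library of each group and did not exceed 0.08 FPKM. Exons of Sema4c, Plxnb1, Nrp1, Ntng2, Sema4a, Plxna4, Plxnc1 and Ntn5 also overlap other annotated genes.

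Of 23 listed co-receptors and partner ligands, 17 were tested, of which 7 rose and 4 fell, against 4.44% higher and 4.87% lower among all tested genes. Their median log2 fold change was 0.24, against -0.0042 over all tested genes. The list was chosen with earlier results of these data known, so these values are described and not tested. Some of its genes reached the mean of 1 FPKM only through the group in which they are high, Kdr (0.22 and 0.25 FPKM without Dox) among them. The highest log2 fold change was that of Kdr, the VEGF receptor, at 3.75, with a 67.1-fold higher mean (adjusted p = 1.38e-04 in limma). Adgrl3, a latrophilin that forms complexes with FLRT and UNC5 proteins, went from 2.07 and 2.17 FPKM to 8.07 and 10.71 FPKM, and the FLRT gene Flrt3 from 22.85 and 23.21 FPKM to 67.36 and 70.63 FPKM (log2 fold changes 1.72 and 1.54). Flrt3 encodes a ligand of UNC5B. The lowest fold changes of this list were those of Islr2 (-1.40), an axonal protein gene, Rgma (-0.98) and Nell2 (-0.81). Rgma encodes a ligand of Neo1 and Nell2 a ligand of Robo3. The means of Islr2, Rgma and Nell2 were 6.69-fold, 2.03-fold and 2.85-fold lower with Dox. Rgma went from 46.86 and 39.67 FPKM to 21.47 and 21.25 FPKM. Exons of Adgrl3, Islr2 and Rgma overlap genes on the opposite strand, and those of Islr2 also overlap Islr on its own strand.

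Of 37 listed cytoplasmic mediators, 36 were tested, 1 rose and 3 fell, a share close to the 9.31% of all tested genes that passed, and the median log2 fold change was -0.01. Trim9, which encodes a ubiquitin ligase that binds DCC, went from 10.47 and 10.13 FPKM to 0.63 and 1.03 FPKM, a 12.4-fold lower mean (log2 fold change -2.63, adjusted p = 4.09e-04 in limma). Srgap3, which encodes a Slit-Robo GTPase-activating protein, went from 10.86 and 9.99 FPKM to 3.26 and 3.98 FPKM (log2 fold change -1.31, adjusted p = 0.00242). Dpysl5, a collapsin response mediator gene, also fell (log2 fold change -0.48, adjusted p = 0.0259). Farp1, which encodes a guanine nucleotide exchange factor that acts with plexins, was the 1 that rose (log2 fold change 0.52, adjusted p = 0.0466). The remaining 32 tested mediators, with the collapsin response mediator genes Crmp1 and Dpysl2 to Dpysl4 among them, did not pass. Trim9 and Srgap3 overlap annotated genes on the opposite strand.

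**Figure D5:**
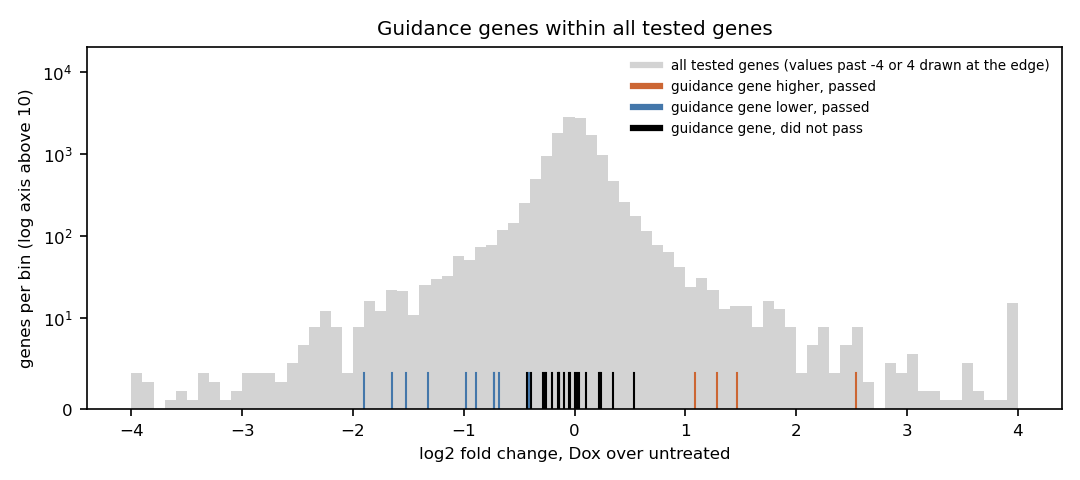
Histogram of log2 fold changes (Dox over untreated) of all 13931 tested genes in grey, with a count axis that is logarithmic above 10, and 1 vertical tick for each of the 35 tested guidance genes. The guidance genes spread from -1.90 to 2.54, while the median absolute value of all genes is 0.13.

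The guidance genes are long. In GENCODE M21 (GRCm38, the assembly also called mm10) the gene span had a median of 260 kb for the 4 genes that rose, 138 kb for the 10 that fell and 39.7 kb for the 21 that did not pass, against 18.5 kb over all tested genes. Unc5b lies on chromosome 10 at 60762593 to 60831581, Sema3a on chromosome 5 at 13125414 to 13602565, Sema3f on chromosome 9 at 107681500 to 107710475 and Sema5a on chromosome 15 at 32244810 to 32696341. Of the genes that fell, Sema5b and Robo2 both lie on chromosome 16, at 35541145 to 35664732 and 73891839 to 74411825, and Slit1 lies on chromosome 19 at 41600257 to 41743665. GGACT, a preferred sequence context of METTL3 written as DNA, occurred at a median of 0.868 per kb in the longest annotated transcripts of the 4 genes that rose, 1.23 per kb in the 10 that fell and 1.54 per kb in the 21 that did not pass, with 0.998 per kb over all tested genes. These are descriptions without a test, and a motif match is not a methylated site.

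Promoter windows were looked up by size of the log2 fold change among the genes that passed, whether or not a call held in every fit. The 3 largest rises were those of Unc5b, Sema3a and Sema5a. Sema5b, Slit1 and Robo2 had the 3 largest falls apart from Dcc, which was left out and is not shown. RefSeq windows on GRCm38.p6, 250 bases before to 50 after a start site, were held for 42 of the 51 genes. The 250 bases before the start are printed for Unc5b and Sema3a, which rose, and Robo2, which fell, each 5' to 3' on the strand of its gene. Capitals mark matches, on either strand, to GGGCGG (GC box), CAGCTG (E-box), TAATTA (homeodomain core) or CTTTGAT (TCF/LEF).
Unc5b, chr10:60831582-60831831, minus strand: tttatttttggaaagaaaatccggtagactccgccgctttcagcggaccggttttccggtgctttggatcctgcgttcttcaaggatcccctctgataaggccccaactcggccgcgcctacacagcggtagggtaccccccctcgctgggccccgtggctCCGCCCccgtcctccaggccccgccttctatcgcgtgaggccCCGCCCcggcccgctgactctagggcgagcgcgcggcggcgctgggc
Sema3a, chr5:13396534-13396783, plus strand: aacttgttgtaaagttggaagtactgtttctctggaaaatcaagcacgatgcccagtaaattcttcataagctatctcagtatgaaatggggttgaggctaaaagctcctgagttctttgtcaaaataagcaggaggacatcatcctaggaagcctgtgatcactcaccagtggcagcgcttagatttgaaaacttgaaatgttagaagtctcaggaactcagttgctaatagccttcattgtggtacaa
Robo2, chr16:74411826-74412075, minus strand: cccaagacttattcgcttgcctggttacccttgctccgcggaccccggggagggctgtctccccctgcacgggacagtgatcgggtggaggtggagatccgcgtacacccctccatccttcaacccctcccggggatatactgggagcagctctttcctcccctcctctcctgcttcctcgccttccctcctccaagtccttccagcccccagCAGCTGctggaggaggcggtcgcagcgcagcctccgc
The Unc5b stretch holds 2 GC boxes and lies in a window with 36 CpG dinucleotides and 69.7% G+C, and the Robo2 stretch holds 1 E-box in a window with 17 CpG and 65.0% G+C. The Sema3a window, at the start of its principal transcript inside the gene span, holds 2 CpG, 41.3% G+C and none of the 4 motifs in its 250 printed bases. Over all 32851 windows the median was 7 CpG and 52.7% G+C. The Robo2 window is 1 of 3 held for that gene, and its start site lies 533 bases from the nearest start of a principal transcript. Windows of Sema5a and Sema5b reach annotated exons and are not printed, and Slit1 has no entry. Among 11 windows of the genes that passed, GGGCGG occurred in 5, CAGCTG in 1, CTTTGAT in 1 and TAATTA in 0, against 35.7%, 16.3%, 3.7% and 5.3% of all windows. These windows are not all of different genes, since Robo2 alone supplies 3. Among the 55 windows of all guidance genes, the 4 motifs occurred in 37, 10, 1 and 1, in the same order.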

How the data were processed

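Polyadenylated RNA of 4 organoid libraries (2 untreated, 2 Dox) was sequenced as paired ends. The authors deposited FPKM values per gene and library, rounded to 2 decimals and not pooled. The submitters' processing notes name STAR, Cuffdiff and mm10, with no versions. The annotation release and any use of strand in counting are not given in the sources used here. All 4 value columns were used and 0 were left out.

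Values were analysed as log2(FPKM + 1). The 13931 genes whose mean reached 1 FPKM entered a two-sided test in limma (version 3.58.1, R version 4.3.3: lmFit, then eBayes with trend, prior of 3.5 degrees of freedom), adjusted by Benjamini-Hochberg over all tested genes, with a threshold of 0.05. Fold changes on this scale understate low genes, so folds of mean FPKM or the library values are given beside many of them. For 2 libraries against 2, the smallest exact two-sided permutation p is 0.333; the p-values printed borrow variance across genes. On simulated data with 200 changed genes among 13931, limma recovered 73.3% of those changed by 1 on the log2 scale. Of those changed by 2 it recovered 90.5%, and 6.32% of the calls were unchanged genes. The changed genes were drawn only from genes above a set mean level, which Dcc, Slit1, Nrp2, Unc5a and Unc5c did not reach. The recovery therefore does not describe genes as low as these.

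Depth was fitted from low values of single-transcript genes (Python 3.11.15, numpy 2.4.6): 77.2% to 79.6% came within 0.1 of a whole fragment, against 20% for evenly spread values. Depth and a length correction were chosen to bring these same values near whole fragments, so the share is partly set by the fit.

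Genes were named by rule: every guidance gene, and from each pathway list up to 3 genes past the threshold per direction. Members, pathway lists (co-receptors and partner ligands; cytoplasmic mediators) and marker lists (eye field, young neuron, neural crest, endothelium, mesenchyme, dorsal forebrain midline, floor plate, pluripotency) were chosen with earlier results of these data known. One marker result is not reported here. The GC box motif and the GGACT count were added after the values were seen. Alternatives were pseudocounts of 0.1 and 5, other filters, TPM, median centring, quantile normalization, other eBayes settings, a replicate block and each library left out.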

Additional observations from a re-analysis of the deposited data

How the results depend on the processing

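Of the 14 guidance genes that passed, 6 kept their call in every fit that tested them, and 0 changed direction. Across their 189 refits, 154 kept the call and 35 lost it. With no filter on low values, which tests 27532 genes, 745 of all genes, 2 guidance genes higher and 6 lower passed, in place of 1297, 4 and 10. With a minimum mean of 5 FPKM, which tests fewer genes, 821 genes and 4 guidance genes lower passed. Fits without 1 library, in which the lone library is assumed to vary like the other group, gave 593 to 697 calls over all genes, and 3 to 4 guidance genes higher and 5 to 6 lower.

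With the replicate block, 1134 genes, 4 guidance genes higher and 9 lower passed. Same-numbered libraries are not shown to be paired (correlation of their deviations -0.0435). The log2 fold change changed sign in some fits without 1 library for genes that had not passed: Ntn3 ranged from -0.12 to 0.32 (-0.07 without untreated replicate 2), Ntn4 from -0.15 to 0.19 (-0.0109 without Dox replicate 2), Sema3b from -0.11 to 0.12, Sema4c from -0.0268 to 0.11, Sema4g from -0.13 to 0.0239, Plxna2 from -0.13 to 0.0511 and Plxnd1 from -0.0010 to 0.44. The median of all genes shifted by under 0.1 under each scaling. Depth limits genes below 1 FPKM.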
